A study of Mus musculus with 24 samples.

Results

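Mast cell and basophil genes were followed in RNA sequencing libraries of mouse fetal liver cells. The set held 10 genes, all 10 of which were found among the 47069 genes listed in the count table by matching Ensembl identifiers to symbols. They were Mcpt8 and Prss34, proteases of basophil granules; Cpa3, a carboxypeptidase of mast cell and basophil granules; the tryptases Tpsb2 and Tpsab1; the chymases Cma1 and Mcpt4; Fcer1a and Ms4a2, subunits of the high-affinity IgE receptor; and Hdc, the enzyme that makes histamine. The choice of the set used no measured value, but it was made with earlier results of these data known.

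Cells came from E12.5 to E13.5 embryos of a B6J.129(Cg) strain with the Gt(ROSA)26Sortm1.1 allele CAG-cas9*,-EGFP, which expresses Cas9 and EGFP from the ubiquitous CAG promoter, and all groups carried sgGata1, a guide against Gata1. The labels call the cells Gata1s, after the short form of GATA1 that lacks the amino-terminal part. The second transgene was miR-125b in one arm and a control microRNA construct in the other. Doxycycline at 1 µg/mL was given for 48 h (day 2), to day 10 or to day 13, and in the remaining condition it was withdrawn on day 10 and cells were taken on day 13. Each of the 8 groups had 3 libraries, numbered 1 to 3, and each arm had 12. The labels do not say whether the numbers stand for separate embryos, cultures or infections, so the p-values measure the spread between these libraries. No group without the Gata1 guide was analysed here.

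Mast cells and basophils are granulocytes that bind IgE through a receptor whose alpha chain (Fcer1a) and beta chain (Ms4a2) are largely restricted to them. On activation they release histamine and granule proteases. In the mouse, Mcpt8 and Prss34 are used as basophil proteases, whereas tryptases and chymases such as Tpsb2, Cma1 and Mcpt4 mark connective tissue mast cells, and Cpa3 and the IgE receptor are shared. Both lineages form from progenitors that need GATA2, and GATA factors act together with C/EBP and RUNX factors in separating granulocyte fates.

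The microRNA that differed between the arms is shown first, with its seed (bases 2 to 8) in capitals, because the seed is the part that pairs with targets. The mature sequence is credited to RefSeq (GRCm38.p6, from Mir125b-2 at chr16:77646279-77646300, plus strand).
miR-125b-5p: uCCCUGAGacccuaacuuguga
The 7-base match to this seed, CTCAGGG, was looked for in 1 annotated 3′ UTR per gene, the longest in GENCODE M21. It was found in 0 of the 10 genes, whose 3′ UTRs ran from 82 bases (Mcpt8) to 1950 bases (Ms4a2), and in 15.9% of the 11665 tested genes with a 3′ UTR (1850 genes). Apart from Ms4a2, Tpsab1 (1601 bases) and Tpsb2 (768 bases), the genes of the set had 328 bases or fewer. The share over tested genes was not matched for length, so a lack of matches in the set cannot be read from it.

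Sequences upstream of 4 of the genes are shown because most genes of the set hold a GATA motif there, which its choice did not use. Mcpt8, which held none, is shown beside 3 that did. The windows lie before the RefSeq start of the gene on its own strand (GRCm38.p6), positions count back from -1 at the base before that start, and capitals mark matches to GATA or RUNX motifs on either strand. Mcpt8 is shown at chr14:56085274-56085423 (minus strand, positions -226 to -77, which end just before the longer GENCODE model begins), Prss34 at chr17:25298244-25298393 (plus), Cpa3 at chr3:20242182-20242331 (minus) and Ms4a2 at chr19:11623720-11623869 (minus), the last 3 over positions -150 to -1.
Mcpt8: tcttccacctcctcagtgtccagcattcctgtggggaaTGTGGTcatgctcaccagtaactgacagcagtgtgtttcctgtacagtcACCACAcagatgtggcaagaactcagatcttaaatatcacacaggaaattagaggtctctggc
Prss34: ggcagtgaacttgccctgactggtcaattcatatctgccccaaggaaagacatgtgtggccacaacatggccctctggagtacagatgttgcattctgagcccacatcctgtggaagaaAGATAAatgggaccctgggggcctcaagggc
Cpa3: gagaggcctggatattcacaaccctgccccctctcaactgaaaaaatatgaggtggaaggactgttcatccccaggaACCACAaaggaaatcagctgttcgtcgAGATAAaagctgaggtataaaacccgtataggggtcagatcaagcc
Ms4a2: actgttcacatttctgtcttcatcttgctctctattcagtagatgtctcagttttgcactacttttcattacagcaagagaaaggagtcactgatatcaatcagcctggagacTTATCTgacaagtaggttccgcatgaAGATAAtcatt

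Of the 10 genes, 8 had a RefSeq window of 250 bases before the start, and Tpsb2 and Tpsab1 had no entry. A GATA motif (AGATAA or AGATAG or TGATAA or TGATAG, either strand) lay in 7 of the 8 windows, against 27.1% of 27025 promoters of the same length. The exception was Mcpt8. Prss34 had its match at -31 to -26, Cpa3 at -46 to -41, and Ms4a2 had 3 matches, at -224 to -219, -37 to -32 and -11 to -6. The RUNX motif TGTGGT lay in 4 of the 8 windows (Mcpt8, Cpa3, Mcpt4 and Fcer1a), against 14.2% of all promoters, and Mcpt8 held it at -188 to -183 and at -139 to -134. A C/EBP motif (TTGCNNAA or TTNCGCAA) lay in 1 window, that of Fcer1a, against 9.55%. These matches are letters in the reference and no measurement of binding.

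The libraries held 14694900 to 23755245 counts. All 10 genes passed the filter on low counts and were among the 13419 genes tested. Gata1 RNA lay between 194.0 and 514.1 CPM (counts scaled to a common library total, with TMM factors) in the 24 libraries. A gene-level count does not show whether its coding sequence was edited. Of the lists that check the labelled tissue, megakaryocyte markers summed to 2830 to 7468 CPM in every library. Hepatocyte markers summed to 2.01 to 4.88 CPM, and 4 of the 10 (Ttr, Fgb, Serpina1a and Ahsg) had 0 counts throughout. Kit, the stem cell factor receptor of mast cells and progenitors, had 18.3 to 40.0 CPM, and Gata2, a transcription factor of mast cell precursors, had 268.4 to 1053 CPM. A gene is said below to have changed where its Benjamini-Hochberg adjusted p over the 13419 genes was under 0.05 in edgeR's quasi-likelihood test. Log2 fold changes are given with their standard errors. The library numbers paired the libraries across groups, and values with the number as a block are given where they change a call of the 10 genes, or of another list's gene on the average of the 4 conditions. Levels are of bulk RNA, in which more cells of a type and more RNA per cell cannot be told apart.

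Mcpt8 and Prss34 were the genes of the set that differed between the arms. Averaged over the 4 conditions, Mcpt8 rose with miR-125b by a log2 fold change of 3.38 ± 0.54 (adjusted p = 0.00317), and Prss34 rose by 4.05 ± 0.60 (adjusted p = 0.00238). Of the 13419 genes tested, 1.28% changed in this comparison, and 6.39% did with the replicate block, under which the values were 3.43 ± 0.46 for Mcpt8 and 4.21 ± 0.43 for Prss34. None of the other 8 genes changed, with or without the block. Without it their average log2 fold changes ran from -0.28 (Cpa3) to 0.74 (Mcpt4), the lowest adjusted p being 0.614. With the block they ran from -0.36 (Cpa3) to 0.84 (Mcpt4), and the lowest adjusted p was 0.115 (Mcpt4). The average treats libraries of 1 arm with the same number as independent across the 4 conditions. A block common to both arms does not remove a difference that 1 arm's number keeps over time. For number 1, Cpa3 was 0.251, 0.301 and 0.260 times the control at day 10, day 13 and after withdrawal. Standard errors and p-values of the average may therefore be too small in both fits.

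Mcpt8 (ENSMUSG00000022157, chr14:56082166-56085273, minus strand) encodes the basophil granule protease mouse mast cell protease 8. At day 2 it had 8, 2 and 11 counts in the miR-125b libraries numbered 1, 2 and 3 and 6, 0 and 2 counts in the control libraries. At day 10 it had 142, 52 and 66 counts with miR-125b and 9, 12 and 0 with the control. The lowest miR-125b library at day 10 thus lay above the highest control library, whereas at day 2 the groups overlapped.
At day 13 with continued doxycycline Mcpt8 had 78, 62 and 34 counts with miR-125b and 4, 11 and 0 with the control. After withdrawal it had 99, 156 and 56 counts against 2, 9 and 0. The groups did not overlap in either of these conditions, and control library 3 had no Mcpt8 count from day 10 on.

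In CPM, Mcpt8 was 5.09 ± 3.48 (SD, n = 3) with miR-125b and 0.36 ± 0.33 with the control at day 10. It was 3.03 ± 1.00 against 0.29 ± 0.35 at day 13 and 5.81 ± 3.08 against 0.19 ± 0.22 after withdrawal. At day 2 it was 0.41 ± 0.29 against 0.14 ± 0.17. Within library numbers at day 10, Mcpt8 was 20.7-fold higher with miR-125b for number 1 and 4.10-fold higher for number 2. For number 3, against a floor of 3 counts in the control library, it was at least 21.9-fold higher. The same floor gave at least 11.2-fold at day 13 and at least 23.1-fold after withdrawal for number 3, and the ratios for number 2 were 5.15 and 21.2.

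Prss34 (ENSMUSG00000056399, chr17:25298394-25300165, plus strand) encodes mouse mast cell protease 11, a tryptase-like protease of basophils and of some mast cells. At day 2 it had 10, 11 and 3 counts with miR-125b and 3, 1 and 0 with the control. At day 10 it had 182, 141 and 152 counts with miR-125b and 6, 24 and 0 with the control. The groups did not overlap in CPM at either time, although at day 2 every library held 11 counts or fewer.
At day 13 Prss34 had 174, 222 and 90 counts with miR-125b and 2, 17 and 0 with the control. After withdrawal it had 142, 311 and 92 counts against 2, 15 and 0. As for Mcpt8, control library 3 had 0 counts and control library 2 had the highest count of the controls in these conditions.

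In CPM, Prss34 was 9.0 ± 2.34 (SD, n = 3) with miR-125b and 0.53 ± 0.68 with the control at day 10. It was 8.57 ± 3.73 against 0.38 ± 0.57 at day 13 and 10.2 ± 6.97 against 0.28 ± 0.38 after withdrawal. At day 2 it was 0.43 ± 0.22 against 0.076 ± 0.082. For number 3, Prss34 was at least 50.5-fold higher with miR-125b at day 10, at least 29.6-fold at day 13 and at least 38.0-fold after withdrawal, and for number 2 it was 5.55-, 11.9- and 25.3-fold higher. For number 1 it was 39.9-fold higher at day 10, and the control counts of 2 at day 13 are too few for a ratio. The plot of the basophil proteases by group shows these levels.

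**Figure D1:**
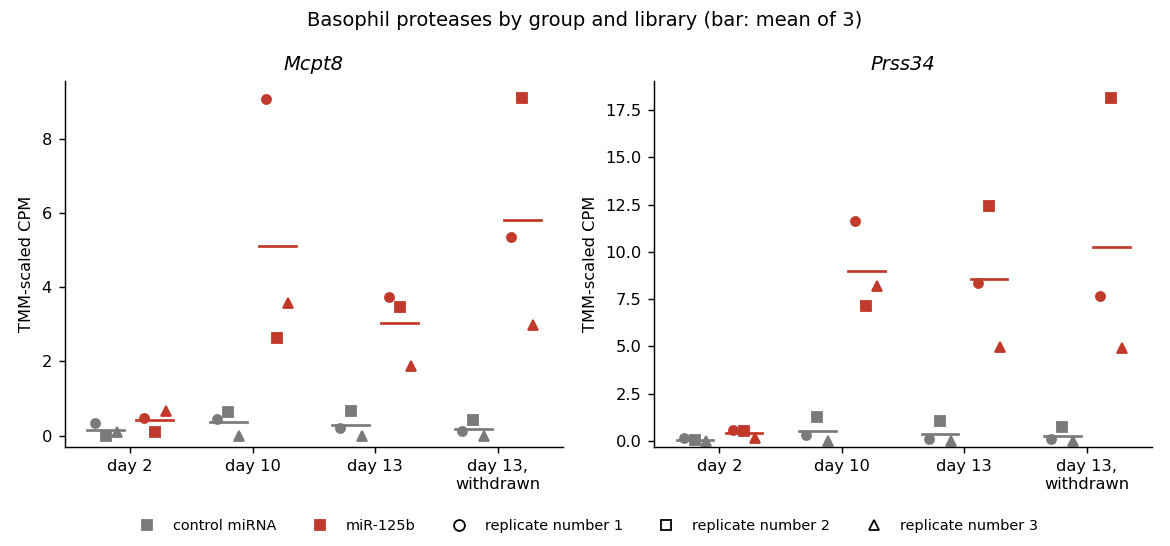
Mcpt8 (left) and Prss34 (right) in TMM-scaled CPM on linear axes, by condition, with control libraries in grey and miR-125b libraries in red. Each point is 1 library, its shape gives the replicate number, and bars are means of 3; from day 10 on, every miR-125b point lies above every control point of its condition.

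Condition by condition, the number of changed genes in the set depended on the block. At day 10 the log2 fold change was 3.78 ± 1.01 for Mcpt8 (adjusted p = 0.0743) and 4.08 ± 1.09 for Prss34 (adjusted p = 0.0753). Neither passed the threshold, 0.872% of all genes did, and these 2 of the 10 genes had an unadjusted p under 0.05, as did 17.4% of all genes. With the block the values were 3.87 ± 0.78 (adjusted p = 0.00692) and 4.52 ± 0.67 (adjusted p = 0.00174), so that both rose, where 8.63% of all genes changed. DESeq2 called both genes at day 10. Without the 8 libraries numbered 2, a choice made after seeing the data, both rose at day 10 without a block, by 4.76 (adjusted p = 0.025) and 5.97 (adjusted p = 0.00848).
At day 13 the log2 fold change was 3.41 ± 1.03 for Mcpt8 and 4.54 ± 1.13 for Prss34 (adjusted p = 0.999 for both, with 0% of all genes called, 388 genes at an unadjusted p under 0.05, and 3 genes called by DESeq2). With the block, Prss34 rose by 4.74 ± 0.70 (adjusted p = 0.0171) in a comparison in which 0.0149% of all genes changed, and Mcpt8 stood at 3.48 ± 0.82 (adjusted p = 0.336).
After withdrawal it was 4.92 ± 1.09 for Mcpt8 (adjusted p = 0.101) and 5.14 ± 1.16 for Prss34 (adjusted p = 0.11), with 0.119% of all genes called. With the block both rose, by 4.91 ± 0.84 (adjusted p = 0.00829) and 5.19 ± 0.72 (adjusted p = 0.00141), and 1.86% of all genes changed. At day 2 none of the 10 genes changed in either fit, in both of which 0% of all genes were called (709 genes at an unadjusted p under 0.05 without the block, 5 called by DESeq2). There the log2 fold change was 1.42 ± 1.22 for Mcpt8 and 2.45 ± 1.51 for Prss34.

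**Figure D2:**
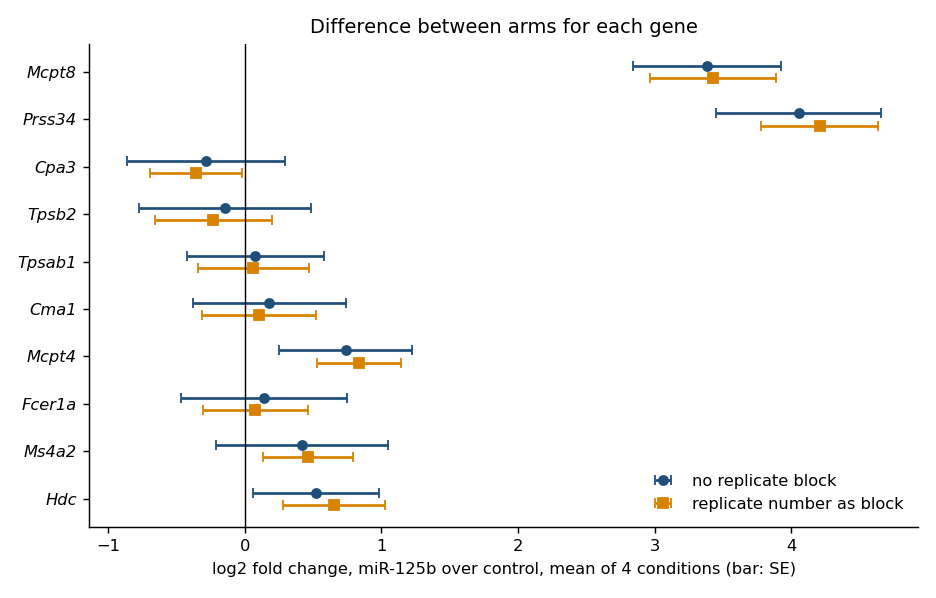
Log2 fold change of each of the 10 genes, miR-125b over control, averaged over the 4 conditions, with its standard error as a bar, in the fit without (circles) and with (squares) the replicate number as a block. Mcpt8 and Prss34 lie above 3, and the other 8 lie between -0.36 and 0.84 in both fits.

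By the counts of groups that did not overlap, with miR-125b higher, Mcpt8 and Prss34 were 2 of the 10 genes at day 10 (9.14% of all tested genes), at day 13 (4.4%) and after withdrawal (5.77%). No other gene of the set separated there. At day 2, where 6.09% of all genes separated, 5 of the 10 did: Prss34, Mcpt4, Fcer1a, Ms4a2 and Hdc. At day 2, 9 of the 10 genes were higher with miR-125b for all 3 library numbers, as were 18.8% of all tested genes, and Tpsab1 was for 2. Genes of the set moved together across libraries, with a Pearson r of 0.949 between Fcer1a and Ms4a2 over the 24 libraries, so their counts are not independent. None of the 10 day 2 differences reached an unadjusted p under 0.05 in the fit without the block. With the block 1 did, Mcpt4 at 1.26 ± 0.46 (unadjusted p = 0.013, adjusted p = 0.424), as did 9.16% of all genes. DESeq2 called none of the 10.

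Cpa3 (ENSMUSG00000001865, chr3:20215620-20242181, minus strand), the granule carboxypeptidase, was the most abundant of the set. Per kilobase of exon and over the 24 libraries its level was 43.1 CPM, followed by Fcer1a (16.9), Cma1 (14.5), Tpsb2 (13.6), Ms4a2 (4.62), Prss34 (3.02), Mcpt8 (1.92), Mcpt4 (0.738), Hdc (0.576) and Tpsab1 (0.206). Cpa3 stood above Fcer1a in 24 of 24 libraries and above all of the other 9 genes in 23. Further down, the ranges of neighbours overlapped, and Fcer1a stood above Cma1, and Mcpt4 above Hdc, in 12 of 24.
At day 2 Cpa3 had 941, 1695 and 1835 counts with miR-125b and 828, 1109 and 1203 with the control. At day 10 it had 244, 2817 and 650 counts with miR-125b and 1279, 4317 and 673 with the control. The groups overlapped, and the library numbered 2 was the highest in both arms.
At day 13 it had 233, 1761 and 385 counts against 777, 2151 and 255, and after withdrawal 134, 1902 and 260 against 438, 2742 and 281. From day 10 on, library 2 had 98.4 to 232 CPM of Cpa3 in both arms, whereas libraries 1 and 3 had 7.25 to 62.2. The log2 fold change averaged -0.28 ± 0.58 (adjusted p = 0.921).

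The tryptase Tpsb2 (ENSMUSG00000033825, chr17:25366305-25369098, plus strand) also overlapped between arms. It had 402, 487 and 961 counts with miR-125b and 425, 310 and 611 with the control at day 2, and 62, 680 and 358 against 224, 502 and 434 at day 10. At day 13 it had 40, 679 and 205 counts against 64, 800 and 220, and after withdrawal 22, 565 and 132 against 12, 1177 and 207. The groups overlapped in all 4 conditions, and from day 10 on the libraries numbered 1 were the lowest of each group, down to 0.763 CPM in the control after withdrawal. Its average log2 fold change was -0.14 ± 0.63 (adjusted p = 0.969).
The tryptase Tpsab1 (ENSMUSG00000024173, chr17:25343245-25345562, minus strand) was near the limit of counting. It had 7, 25 and 34 counts with miR-125b and 17, 13 and 33 with the control at day 2, and 3, 9 and 4 against 5, 5 and 7 at day 10. At day 13 it had 0, 5 and 3 counts against 0, 1 and 8, and after withdrawal 0, 3 and 3 against 0, 1 and 4. Its average log2 fold change was 0.08 ± 0.50 (adjusted p = 0.978). Tpsb2 and Tpsab1 are closely related neighbours, so reads may be divided between them uncertainly.

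The chymase Cma1 (ENSMUSG00000022225, chr14:55941451-55944675, minus strand) had 306, 225 and 712 counts with miR-125b and 185, 134 and 391 with the control at day 2. It had 73, 422 and 433 counts against 177, 303 and 378 at day 10. At day 13 it had 42, 532 and 248 counts against 114, 610 and 147, and after withdrawal 19, 494 and 124 against 35, 681 and 139. Cma1 groups overlapped throughout, with an average log2 fold change of 0.18 ± 0.56 (adjusted p = 0.951).
The chymase Mcpt4 (ENSMUSG00000061068, chr14:56059629-56062313, minus strand) had 35, 40 and 80 counts with miR-125b and 12, 19 and 36 with the control at day 2. It had 6, 9 and 20 counts against 5, 1 and 14 at day 10, then 5, 9 and 16 against 0, 3 and 17 at day 13, and 2, 5 and 7 against 0, 3 and 10 after withdrawal. The Mcpt4 groups separated in CPM at day 2 only, at 2.96 ± 1.68 (SD, n = 3) against 1.22 ± 0.56. The log2 fold change was 1.26 ± 0.84 there and 0.74 ± 0.49 on average (adjusted p = 0.614).

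Fcer1a (ENSMUSG00000005339, chr1:173221284-173227214, minus strand), the alpha chain that binds IgE, had 293, 502 and 438 counts with miR-125b and 140, 245 and 211 with the control at day 2. At day 10 it had 136, 1058 and 150 counts against 314, 1074 and 73. The groups separated at day 2, at 22.7 ± 5.15 CPM (SD, n = 3) against 11.4 ± 4.48, and overlapped at day 10.
At day 13 Fcer1a had 66, 434 and 63 counts against 277, 438 and 33, and after withdrawal 75, 633 and 45 against 218, 507 and 40. For number 1 the control was higher in these conditions and for number 3 the miR-125b library was. The average log2 fold change was 0.14 ± 0.61 (adjusted p = 0.968).
Ms4a2 (ENSMUSG00000024680, chr19:11615523-11623719, minus strand), the beta chain that amplifies the receptor's signal, had 247, 545 and 373 counts with miR-125b and 185, 211 and 173 with the control at day 2. At day 10 it had 81, 915 and 124 counts against 123, 741 and 52, at day 13 76, 337 and 57 against 106, 321 and 24, and after withdrawal 59, 468 and 46 against 73, 388 and 17. The Ms4a2 groups separated at day 2, at 21.2 ± 6.27 CPM against 10.9 ± 2.90, and its average log2 fold change was 0.42 ± 0.63 (adjusted p = 0.885).

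Hdc (ENSMUSG00000027360, chr2:126593667-126619299, minus strand), histidine decarboxylase, had 76, 62 and 113 counts with miR-125b and 51, 20 and 59 with the control at day 2. At day 10 it had 51, 97 and 45 counts against 34, 55 and 28. For each of the 3 numbers the miR-125b library was higher at both times.
At day 13 Hdc had 55, 123 and 41 counts against 19, 173 and 29, and after withdrawal 58, 164 and 34 against 17, 192 and 13. In CPM the miR-125b library was higher for 2 of the 3 numbers at day 13 and for all 3 after withdrawal. The average log2 fold change was 0.52 ± 0.46 (adjusted p = 0.752). Without the 8 libraries numbered 2, Hdc was called as well, at 1.11 ± 0.21 (adjusted p = 0.0141), in a fit that called 370 of all genes. The plot of the other 8 genes shows how far libraries of one number stayed together.

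**Figure D3:**
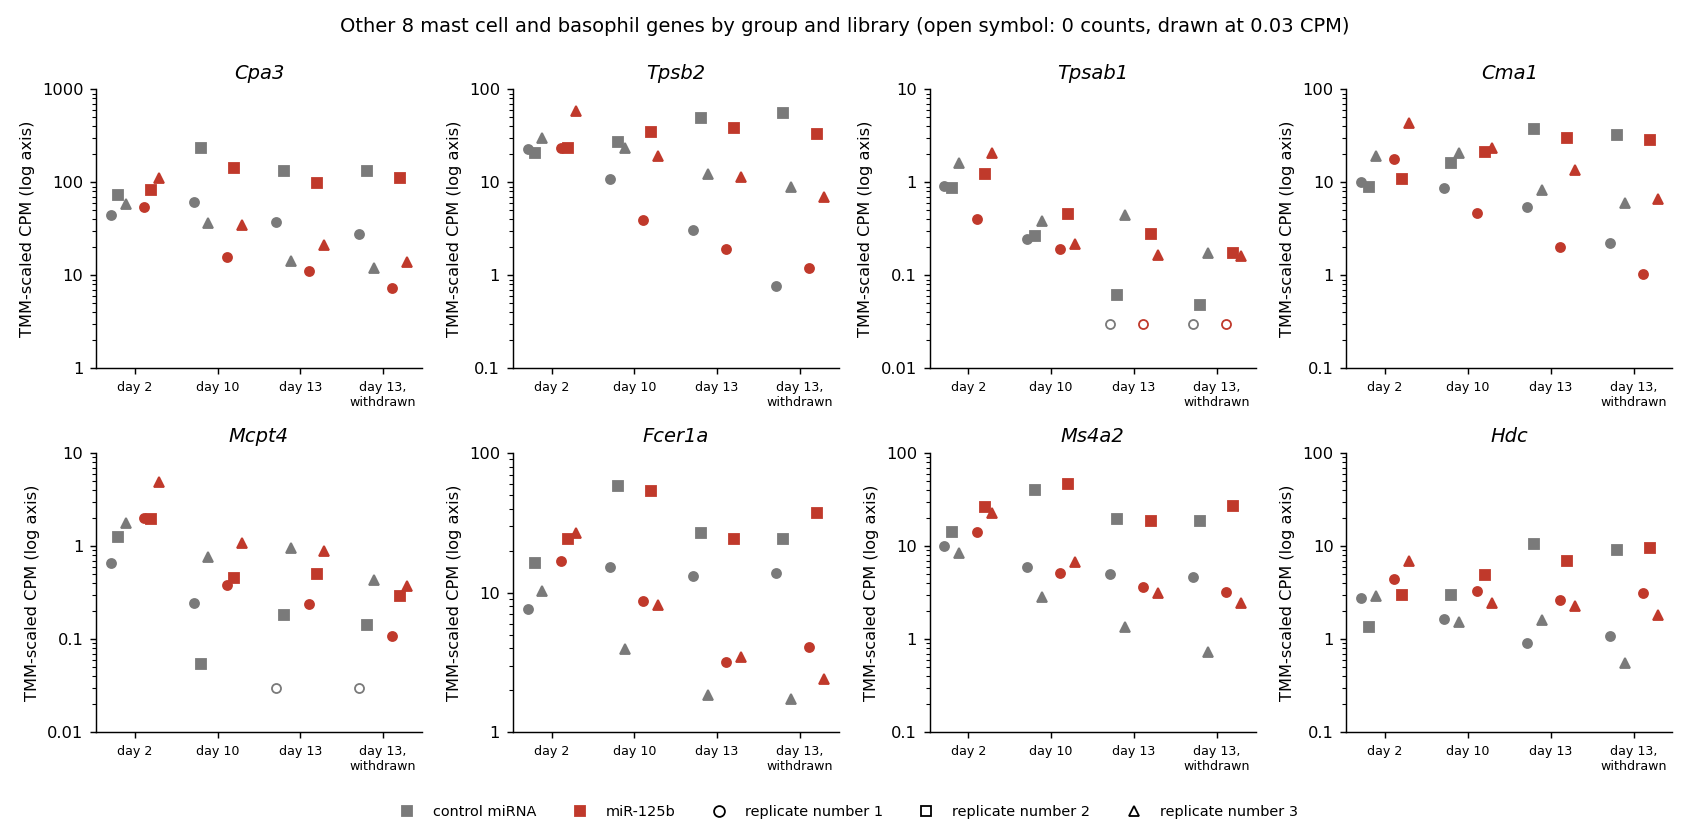
Cpa3, Tpsb2, Tpsab1, Cma1, Mcpt4, Fcer1a, Ms4a2 and Hdc in TMM-scaled CPM on log axes, by condition, with control libraries in grey and miR-125b libraries in red. Shapes give the replicate number and open symbols are 0 counts; from day 10 on the squares (number 2) are the highest points in both arms for Cpa3, Tpsb2, Fcer1a, Ms4a2 and Hdc.

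From day 2 to day 10 in the miR-125b arm, Mcpt8 had a log2 difference of 3.64 ± 1.00 (adjusted p = 0.102) and Prss34 of 4.34 ± 1.11 (adjusted p = 0.0878). Mcpt4 had -2.18 ± 0.88 (adjusted p = 0.247) and Tpsab1 -2.05 ± 0.86 (adjusted p = 0.266). None of the 10 genes was called, where 0.224% of all genes were, and 4 of the 10 had an unadjusted p under 0.05, as did 14.9% of all genes. With the block, under which 4.08% of all genes changed, Mcpt8 rose by 3.60 ± 0.78 (adjusted p = 0.0189), Prss34 rose by 4.65 ± 0.69 (adjusted p = 0.00336) and Mcpt4 fell by 2.25 ± 0.50 (adjusted p = 0.0185) on the log2 scale. DESeq2 called Mcpt8 and Prss34.
In the control arm none of the 10 was called in either fit, where 0% of all genes were without the block (906 at an unadjusted p under 0.05, 50 called by DESeq2) and 0.149% with it. Mcpt8 differed there by 1.27 ± 1.22 and Prss34 by 2.71 ± 1.48 on the log2 scale, from counts of 6 or fewer at day 2. Mcpt4 and Tpsab1 stood at -1.79 ± 0.93 and -1.92 ± 0.85. The difference between the arms in this time course was tested as an interaction, and none of the 10 genes was called (0% of all genes in either fit and in DESeq2, with 920 genes at an unadjusted p under 0.05). It was 2.37 ± 1.65 for Mcpt8 (adjusted p = 0.807) and 1.64 ± 2.20 for Prss34 (adjusted p = 0.937).

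Withdrawal of doxycycline on day 10 gave no called difference in the set. In the miR-125b arm, withdrawn against continued at day 13, the log2 difference was 0.94 ± 0.86 for Mcpt8 and 0.26 ± 0.91 for Prss34, and the other 8 ran from -1.04 (Mcpt4) to 0.49 (Fcer1a). In the control arm all 10 lay between -0.98 (Tpsab1) and 0.05 (Tpsb2). Of all genes 0% were called in either arm (297 and 356 genes at an unadjusted p under 0.05, 7 and 8 called by DESeq2, none of them in the set), and with the block 0.0522% and 0.00745% were. The interaction of withdrawal with the arm was 1.51 ± 1.49 for Mcpt8 and 0.60 ± 1.55 for Prss34, with no gene of the set called and 0% of all genes called in either fit and in DESeq2 (226 genes at an unadjusted p under 0.05). Between the arms, 3 days after the drug was taken away, the log2 fold changes were 4.92 for Mcpt8 and 5.14 for Prss34. They were not called in the fit without the block, and both genes were called with it. A difference from continued doxycycline was not detectable with 3 libraries a group. Mean Arid3a RNA, outside the set, was lower with miR-125b at day 10 (31.8 against 58.5 CPM) and after withdrawal (31.2 against 69.5). With continued doxycycline at day 13 it was 52.2 against 61.0 CPM. Whether the labels of the day 13 conditions match the treatment was not tested, so these values are of the groups as labelled.

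How the variation of each gene divided between arm, condition and library number differed within the set. Of the sum of squares of log2(CPM + 0.5), the arm held 57.5% for Mcpt8 and 59.3% for Prss34, and the library number 3.41% and 5.48%. For Cpa3, Tpsb2, Cma1, Fcer1a and Ms4a2 the number held 46.6% to 60.8% and the arm at most 2.94%, and for Hdc they held 31.3% and 13.8%. For Tpsab1 and Mcpt4 the condition held 75.6% and 60.8%. The medians over all tested genes were 18.4% for the number, 2.69% for the arm and 15.3% for the condition. The offset of 0.5 is of the size of the control levels of Mcpt8 (0 to 0.67 CPM) and Prss34 (0 to 1.29 CPM). Differences between those libraries therefore weigh less than those of the more abundant genes. These shares are descriptions of the same 24 libraries and carry no test.
The correlations followed this division only in part. Over the 24 libraries r was 0.967 between Mcpt8 and Prss34, 0.946 between Tpsb2 and Cma1, 0.902 to 0.949 among Cpa3, Fcer1a and Ms4a2, and 0.848 between Tpsab1 and Mcpt4. Between Cpa3 and Mcpt8 it was -0.169 and between Cpa3 and Prss34 -0.107. Among the genes in which the number held most, Fcer1a had an r of 0.523 with Tpsb2 and 0.543 with Cma1, about that of Tpsb2 with Tpsab1 (0.547), and Hdc had 0.707 with Ms4a2. When the deviations from group means were used, r with the other 8 genes ran from -0.408 (Mcpt4) to 0.629 (Hdc) for Mcpt8 and from -0.506 (Mcpt4) to 0.765 (Ms4a2) for Prss34, and with Cpa3 it was 0.344 and 0.670.

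The summed level of the 10 genes did not separate the arms, while its make-up did. The sum was 196.3 ± 74.8 CPM (SD, n = 3) with miR-125b and 123.6 ± 20.2 with the control at day 2, and library numbers spanned 62.6 to 314.5 CPM with miR-125b and 90.0 to 377.4 with the control at day 10. From day 10 on Mcpt8 and Prss34 made up 3.11% to 39.5% of the sum in the 9 miR-125b libraries and 0% to 0.689% in the 9 control libraries. At day 2 the share was 0.0485% to 0.774% in all 6 libraries. Within the miR-125b arm the share was highest in library 1 (32.8% to 39.5% from day 10 on), where Cpa3 was lowest.

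**Figure D4:**
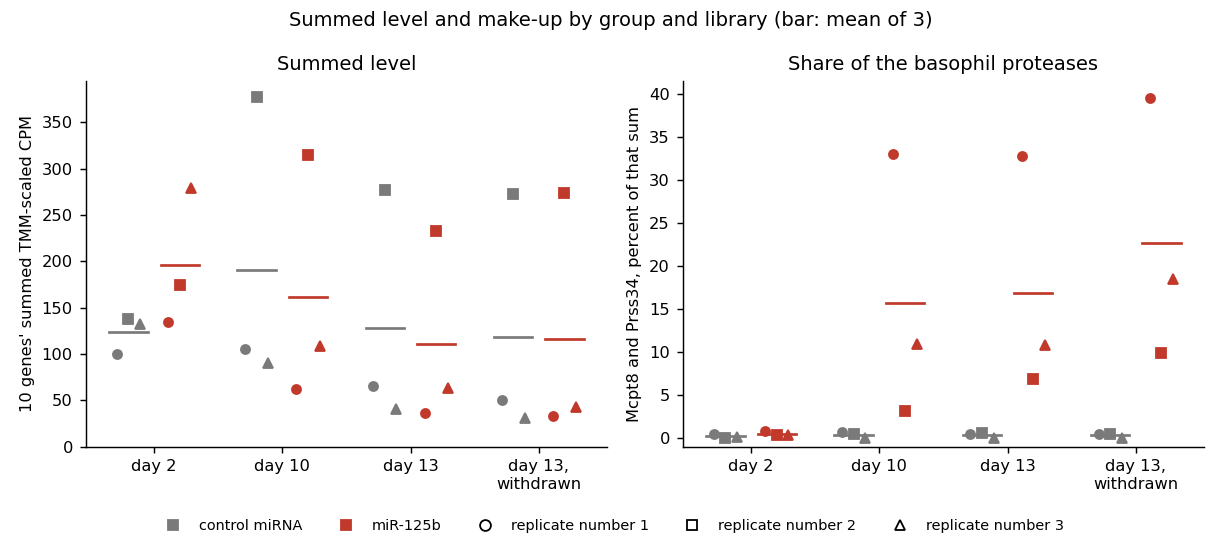
Left, the 10 genes' summed TMM-scaled CPM; right, Mcpt8 and Prss34 as a percent of that sum, by condition, with control libraries in grey and miR-125b libraries in red, replicate numbers as shapes and means of 3 as bars. The sums overlap between arms and are highest for number 2 from day 10 on, and the shares of the miR-125b libraries from day 10 on all exceed the highest control share of 0.689%.

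Mcpt8 and Prss34 lie in clusters of related proteases on different chromosomes. On chr14 the genes from Cma1 to Gzmb stand in the order Cma1, Mcpt2, Mcpt4, Mcpt8, Ctsg, Gzmc and Gzmb among those tested. Mcpt8 and its neighbour Ctsg, which encodes cathepsin G of neutrophil and mast cell granules, rose on average, Ctsg by 3.09 ± 0.48 (adjusted p = 0.00286). Ctsg had 270 counts summed over the miR-125b libraries and 31 over the control libraries. Mcpt2, Gzmc and Gzmb stood at -0.28 ± 0.30, -0.56 ± 0.44 and 0.19 ± 0.57 and were not called. On chr17 Prss34 was called, and Tpsab1, Tpsb2 and Tpsg1 (-0.04 ± 0.67), a membrane-anchored tryptase, were not. Prss28, next to Prss34, had 8 counts in all with miR-125b and 0 with the control and was not tested. Whether the counting used strand is not given in the sources used here, and the only annotated genes that overlap a member are the microRNA genes Mir6949 in Mcpt8 (0 counts) and Mir7007 in Cpa3 (77 counts in all).

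Other genes of both lineages were described from 4 lists, with medians set beside the median of all tested genes, -0.01. Of the other granule proteases and matrix genes, 9 of 12 were tested, 1 rose (Ctsg), none fell, and the median of the average log2 fold change was -0.04. Of the receptors and signalling genes, 16 of 18 were tested, 1 rose, none fell, and the median was -0.10. The 1 was Itga2, the alpha-2 integrin chain known on basophils as CD49b and also on platelets, at 0.94 ± 0.21 (adjusted p = 0.0311). Its call was lost in 11 of 24 fits without 1 library, with an adjusted p of up to 0.0705. Those were the fits without miR-125b library 1 and control libraries 1 and 2 of day 2, miR-125b library 3 and control libraries 1 and 3 of day 10, miR-125b library 2 and control libraries 1 and 3 of day 13, and miR-125b library 1 and control library 3 of withdrawal.
None of the 12 transcription factors and none of the 8 tested of 12 lipid mediator and cytokine genes changed, with medians of -0.09 and -0.05. With the block, Cebpa, a granulocyte C/EBP factor, rose by 1.13 ± 0.17 (adjusted p = 0.000362), and Ikzf2 (-0.30 ± 0.08), Lyn (-0.17 ± 0.04), Cd63 (-0.24 ± 0.07) and Alox5 (-0.13 ± 0.04) fell. The basophil receptor gene Cd200r3 had 3.03 ± 2.88 CPM (SD, n = 3) with miR-125b and 3.87 ± 4.46 with the control at day 10, and its average log2 fold change was -0.03 ± 0.54 (adjusted p = 0.994).

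Some neutrophil markers also rose with miR-125b. Of 12 neutrophil markers 7 were tested, 2 rose on average and none fell, with a median log2 fold change of 2.13. They were Mpo, the myeloperoxidase of neutrophil granules, at 4.69 ± 0.44 (adjusted p = 2.55e-05), and Cebpe, a granulocyte transcription factor, at 2.69 ± 0.55 (adjusted p = 0.016). Mpo had 17.8 ± 7.37 CPM (SD, n = 3) with miR-125b at day 10 and 0.51 ± 0.42 with the control. Without the 8 libraries numbered 2, Cebpe was not called (adjusted p = 0.129). With the block Elane, neutrophil elastase, rose as well, by 2.07 ± 0.59 (adjusted p = 0.0376). Both Cebpe and Elane had few counts. Cebpe had 0 to 24 per library with miR-125b and 0 to 6 with the control, and Elane had 1 to 14 and 0 to 4.
From day 2 to day 10 in the miR-125b arm, where Mcpt8 and Prss34 rose with the block, the neutrophil markers moved both ways in that fit. Mpo rose by 2.47 ± 0.48 (adjusted p = 0.0131), while the calprotectin subunit genes S100a8 (-6.29 ± 1.71, adjusted p = 0.0464) and S100a9 (-5.67 ± 0.97, adjusted p = 0.0096) fell. None of the 7 was called there without the block. Counts of S100a8 and S100a9 are not given here. At day 2 with miR-125b the 12 markers summed to a mean of 47.5 CPM. Of this, Prtn3, a further marker of the list, held 40.7 CPM and Mpo 3.68.
The 12 neutrophil markers summed to 29.8 to 96.8 CPM in the miR-125b libraries at day 10 and 5.80 to 32.4 in the control libraries. At day 2 the sums were 24 to 68.1 and 19.8 to 39.5, at day 13 they were 25.4 to 41.1 and 5.32 to 43.6, and after withdrawal 41.6 to 58.8 and 6.26 to 41.2. The sums overlapped between the arms at day 2, day 10 and day 13 and not after withdrawal. Most of the mean sum at day 10 was Prtn3, which was not called. It held 43.9 of 63.6 CPM with miR-125b and 18.95 of 20.7 with the control. At day 13 Prtn3 had a mean of 19.0 CPM with miR-125b and 22.25 with the control. The part of other cell types in the difference of Mcpt8 and Prss34 was not tested.
Eosinophil markers (2 of 10 tested, Ear1 and Ear2 at 0 counts throughout) summed to 12.2 to 34.6 CPM and none was called, although with the block Prg2 rose by 2.14 ± 0.64 (adjusted p = 0.0495). Prg2 had 0 to 18 counts per library with miR-125b and 0 to 9 with the control. Macrophage and monocyte markers (5 of 12 tested, Vsig4 at 0) summed to 6.23 to 33.7 CPM with none called and a median of 0.73. Of the 12 megakaryocyte markers 1 rose, Selp (P-selectin, 1.54 ± 0.29, adjusted p = 0.00966), and the median was -0.25. With the block 2 rose and 4 fell. Ppbp, a platelet chemokine, rose by 0.99 ± 0.21 beside Selp, and Treml1 (-0.66 ± 0.15) and the subunits of the platelet receptor for von Willebrand factor Gp1bb (-0.53 ± 0.10), Gp1ba (-0.31 ± 0.08) and Gp9 (-0.42 ± 0.08) fell.
None of the 10 tested erythroid, 2 tested hepatocyte and 10 progenitor markers was called without the block. With it Hba-a1, an alpha globin, fell by 0.92 ± 0.17 (adjusted p = 0.00361) on the log2 scale and Ptprc, the leukocyte antigen CD45, rose by 0.46 ± 0.12 (adjusted p = 0.0341).

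The 8 genes most like the summed set, by Pearson r over the 24 libraries on the log2(CPM + 0.5) scale, were Papss2 (0.934), Tpsg1 (0.934), Cd200r4 (0.929), Id2 (0.925), Il1rl1 (0.909), Gucy2g (0.906), Lin7b (0.903) and Nmnat2 (0.898). None of the 8 was called between arms, and their average log2 fold changes ran from -0.33 to 0.18. Cpa3 alone made up 22.0% to 61.4% of the sum. For Mcpt8 and Prss34 together, a comparison chosen after their values were seen, the genes most alike included Epdr1 (0.872), Mpo (0.866), Ctsg (0.856), 9330182L06Rik (0.848), Abat (0.833), Parvg (0.824) and Tdrkh (0.789). Epdr1, Mpo, Ctsg, 9330182L06Rik and Abat rose on average (adjusted p from 2.55e-05 to 0.0276), and Parvg and Tdrkh were not called without the block. None of these 7 was among the 8 genes most like the summed set. That follows largely from the way they were picked, because likeness to genes that differ between the arms favours such genes.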

How the data were processed

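Total RNA of 24 libraries was sequenced, 3 in each of 8 groups. The authors deposited 1 table of raw read counts, in whole numbers, with a row per gene. Per the submitters' processing notes, fastp, HISAT2 2.0.5 and featureCounts were used with mm10, and the annotation, strand setting and filters are not given in the sources used here. All 24 count columns were matched to libraries through the labels. Symbols were matched for 46488 of 47069 identifiers through GENCODE M21 (GRCm38), and at most 0.0638% of a library's counts had no symbol.

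The counts were tested with edgeR 4.0.16 in R 4.3.3 (TMM, filterByExpr by group, robust quasi-likelihood fit, two-sided tests). One fit held all libraries and 1 coefficient per group, with 16 residual degrees of freedom, and 11 contrasts were tested, each adjusted by Benjamini-Hochberg over 13419 genes at a threshold of 0.05. Standard errors come from the quasi-likelihood F statistic. The floor of 3 counts covers counting error only. The pipeline was tested on simulated data. The 24 within-group pairs differed by 10.7 to 99.9 chi-square units per degree of freedom, so no library was a repeat of another in its group. Pairs across groups were not checked in this way.

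The labels give the same replicate numbers in every group. Deviations from group means of same-numbered libraries correlated in all 84 pairs (r from 0.163 to 0.781, minimum set at 0.1), so the numbers were taken as pairing the libraries, and a fit with the number as a block was an alternative. Others were DESeq2 1.42.0, other size factors, no filter, the newer quasi-likelihood estimate, only the groups compared, and leaving out libraries.

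The 10 genes and all lists were chosen with earlier results of these data known. By rule, all 10 genes were named, with the called genes of the lists and the 8 genes most like the summed set. List genes called only with the block, Cd200r3 and Arid3a were named after their values were seen. Of the genes most like Mcpt8 and Prss34, 1 is not reported here.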

Additional observations from a re-analysis of the deposited data

How the results depend on the processing

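Both calls on the average of the 4 conditions, Mcpt8 and Prss34, held in every fit run, including all 24 without 1 library (log2 fold change 3.21 to 3.80 for Mcpt8 and 3.87 to 4.72 for Prss34). No fit had a separate term for each library number within each arm. The single-condition counts depended on the estimate of the spread. At day 10 the number of the 10 genes called was 0, but 2 with the replicate block, with DESeq2, with the newer quasi-likelihood estimate and without the 8 libraries numbered 2 (chosen after seeing the data), and 0 to 2 without 1 library. Leaving out miR-125b library 2 of day 10 gave both calls, and leaving out control library 2 of day 10 gave Prss34. At day 13 it was 0, but 1 (Prss34) with the block and with the newer estimate. After withdrawal it was 0, but 2 with the block, DESeq2 and the newer estimate. From day 2 to day 10 in the miR-125b arm it was 0, but 3 with the block, 2 with DESeq2 and the newer estimate and 1 with only the groups compared. The block changed no other call among the 10 genes.

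Some values that were not called changed sign. With the replicate block 11 of the 110 differences of the 10 genes did, none of them called in either fit (lowest adjusted p = 0.583), of which those that moved most were Ms4a2 from day 2 to day 10 in the control (0.58 to -0.28), Fcer1a over the same days in the miR-125b arm (0.050 to -0.77) and Fcer1a after withdrawal (0.12 to -0.24). Without the 8 libraries numbered 2, Tpsab1 (-0.56) and Fcer1a (-0.34) turned negative on average, and Prss34 on withdrawal became 0.041 in the control and -0.077 in the miR-125b arm. Without 1 library, the average ran from -0.80 to 0.10 for Cpa3, -0.58 to 0.39 for Tpsb2, -0.13 to 0.67 for Tpsab1, -0.24 to 0.61 for Cma1, -0.40 to 0.49 for Fcer1a and -0.069 to 0.89 for Ms4a2. The withdrawal difference in the control ran from -2.25 to 0.83 for Mcpt8 and -2.62 to 2.33 for Prss34, and in the miR-125b arm from -0.45 to 0.62 for Prss34. The cause was not tested.

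The number of all genes called at day 10 was 117, and 1 to 799 without 1 library, 1158 with the block, 576 with DESeq2, 65 without the filter and 658 without the libraries numbered 2. On average it was 172, and 81 to 260 without 1 library, 858 with the block, 357 with DESeq2 and 370 without the libraries numbered 2. After withdrawal it was 16, and 249 with the block and 95 with DESeq2. From day 2 to day 10 in the miR-125b arm it was 30, and 547 with the block, 301 with DESeq2 and 0 without the libraries numbered 2. With only the groups compared it was 0 at day 10 and after withdrawal, and 4 from day 2 to day 10 in the miR-125b arm. With the newer quasi-likelihood estimate it was 171 at day 10, 2 at day 13 and 31 after withdrawal. From day 2 to day 10 in the miR-125b arm that estimate gave 66. The share of genes called that the text sets beside the 10 genes moves with these counts. Counts of 0 to 24 in the control libraries limit the size of the differences of Mcpt8 and Prss34.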
